A study of Mus musculus with 27 samples.

Results

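The 42 genes described here drive DNA replication and mitosis and are transcribed in the dividing cells of the intestinal crypt. They were matched by Ensembl gene identifier from a fixed list of symbols, and all 42 were found among the 46078 genes of the count tables. By role, 21 act in mitosis, 11 in replication origin licensing and fork progression, 4 in nucleotide supply and 6 in cell cycle entry and checkpoints. Messenger RNA was measured by RNA-Seq in epithelial scrapings of the distal ileum from 27 male C57BL/6 mice, 3 in each of 9 groups. Mice were gavaged every 4 days for 28 days with sesame oil vehicle or with 1 of 8 doses of the dioxin TCDD, a persistent ligand of the aryl hydrocarbon receptor (AhR), and were sampled at postnatal day 56. The doses in µg/kg were 30, 10, 3 and 1, then 0.3, 0.1, 0.03 and 0.01. All groups, controls included, received sesame oil by gavage and were fasted before sampling, animals of a group shared cages, and the labels do not give each mouse's cage. Mice are named by the number in their labels: the vehicle mice are 2, 3 and 4 and the 30 µg/kg mice are 65, 67 and 68.

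The ileal epithelium renews itself from stem cells at the crypt base, whose transit-amplifying daughters pass through the cell cycle several times before they differentiate on the villus. Replication genes such as the Mcm helicase subunits are switched on by E2F factors at the entry to S phase, whereas cyclin B, Aurora kinases and mitotic kinesins peak later, in G2 and M phase, under the DREAM and MuvB-FOXM1 complexes. TCDD-activated AhR binds a core DNA sequence, the dioxin response element (DRE), and induces Cyp1a1, a cytochrome P450 that serves as a sign of exposure.

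The files held 12260382 to 17135426 counts on genes per mouse, which gave 1499 to 3896 counts for Mki67 and 12 to 39 for Gins1, the gene of the set with the fewest counts. Cyp1a1 rose from 0.117 ± 0.107 CPM (counts-per-million, SD, n = 3) in vehicle to 1741 ± 621 CPM at 30 µg/kg (n = 3). The labelled tissue was checked on mature enterocyte markers, and in vehicle Anpep, a brush border peptidase, stood at 9853 ± 337 CPM and Vil1, an actin-bundling protein of microvilli, at 2488 ± 153 CPM. The scraping also held other cells, since the stroma and muscle marker Myh11 stood at 30.6 ± 23.5 CPM in vehicle. In a bulk scraping, fewer cells of a type and less RNA per cell cannot be told apart.

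Per kilobase of exon, the proliferation marker Mki67 was the most abundant of the 42 genes in vehicle, at 23.0 ± 3.45 RPKM (SD, n = 3), above 89.2% of all genes tested. Top2a, the topoisomerase that untangles replicated chromosomes, followed at 16.3 ± 3.25 RPKM, and Cdc20, the activator of the anaphase-promoting complex, at 13.5 ± 2.43 RPKM. Ccnb2 at 13.3 ± 2.75 RPKM and Ccna2 at 12.8 ± 3.37 RPKM were next, and these neighbours, Cdc20 included, did not differ beyond their spread. At the other end were Cdc6 with 1.29 ± 0.149 RPKM, Ccne1 with 1.24 ± 0.218 RPKM and Gins2 with 1.09 ± 0.134 RPKM.

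The first question was at which dose these genes departed from vehicle. A gene was called when its adjusted p was at most 0.05 over the 16741 genes tested (edgeR quasi-likelihood test, Benjamini-Hochberg) and its fold change at least 1.5. At 30 µg/kg, 19 of the 42 genes fell and 2 rose, against 3.98% of all genes tested that fell and 5.42% that rose. By adjusted p alone 20 fell, Mcm3 being the addition, against 8.49% of all genes. The median log2 fold change of the 42 genes was -0.59, against 0.02 for all genes tested, and 37 of the 42 were below 0. The 2 genes that rose were Rrm2, the regulated subunit of ribonucleotide reductase, and Wee1, the kinase that holds Cdk1 inactive before mitosis.

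At each lower dose edgeR called 0 of the 42 genes, and DESeq2 also called 0. The background was 0% of all genes tested at 0.01, 0.03, 0.1 and 0.3 µg/kg, 0.591% at 1 µg/kg, 1.11% at 3 µg/kg and 2.53% at 10 µg/kg. At an unadjusted p under 0.05 the count was 0 at 0.01 and 0.03 µg/kg, 1 at 0.1 and 0.3 µg/kg, 7 at 1 µg/kg, 3 at 3 µg/kg and 2 at 10 µg/kg. The shares of all genes tested under that p were 14.1%, 13.7% and 17.4% at 1, 3 and 10 µg/kg and 3.53 to 7.45% at the lower doses, so the count at 1 µg/kg was near the background and those at the other doses under it. The sign of the fitted change was nonetheless uneven. Of the 42 genes, 19 and 16 were below 0 at 0.01 and 0.03 µg/kg, 28 at 0.1 µg/kg, 39 at 0.3 µg/kg, 40 at 1 µg/kg, 38 at 3 µg/kg and 33 at 10 µg/kg. All doses share the same 3 vehicle mice and the genes share their cells, so these counts are not independent of each other. In the same order of dose the median log2 fold change was 0.01, 0.05, -0.08, -0.19, -0.34, -0.28 and -0.23.

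**Figure D1:**
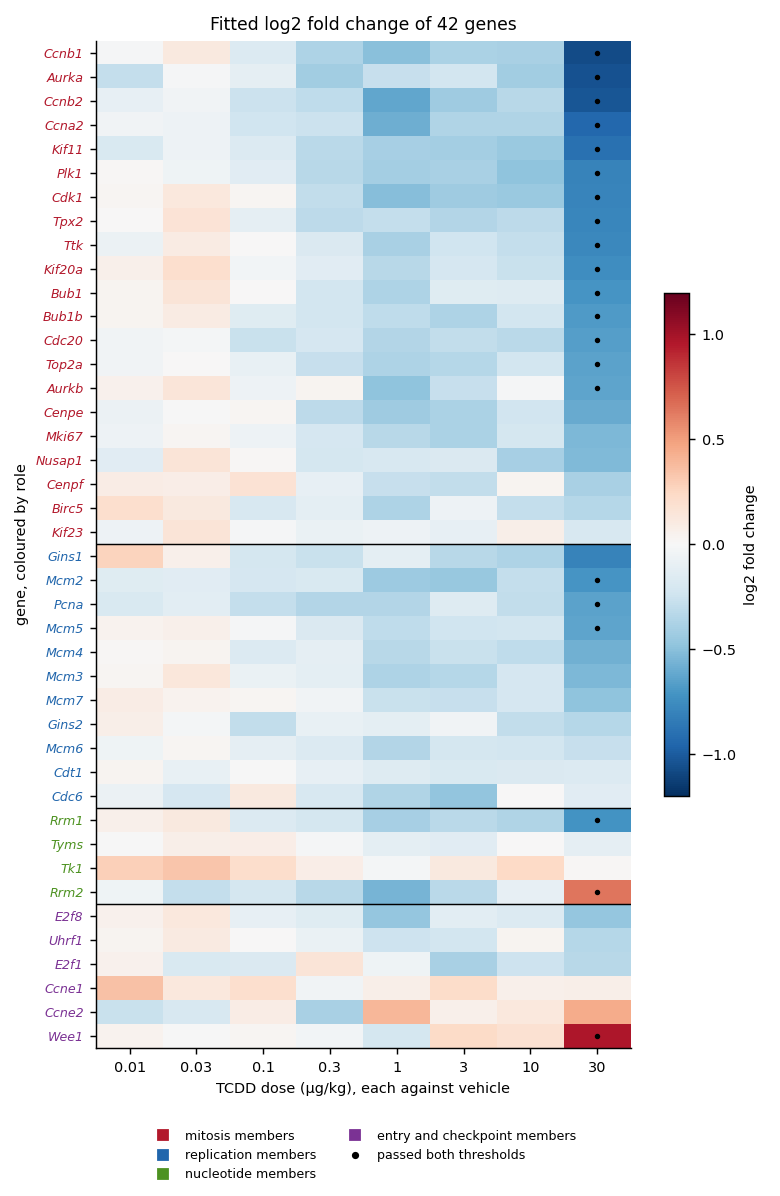
Fitted log2 fold change of each of the 42 genes (rows, coloured by role) at each TCDD dose against vehicle (columns), 3 mice per group, with a dot where the gene passed both thresholds. Dots appear in the 30 µg/kg column alone, 21 in number, and the mitosis rows there reach -1.07.

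A linear trend over dose rank, which uses all 27 mice, called 29 genes by adjusted p in edgeR. Of these 28 fell with dose, against 12.8% of all genes tested, and 1, Wee1, rose, against 13.4%. The trend called 19 of the 21 mitosis genes and 8 of the 11 replication genes. An F test over all 9 groups called 3 genes, Rrm1, Rrm2 and Wee1 (adjusted p = 0.042, 0.00704 and 0.0188 by edgeR), against 9.53% of all genes. Between 30 and 3 µg/kg only Rrm2 was called, with a log2 fold change of 0.96 ± 0.20 (SE, edgeR adjusted p = 0.0171), against 0.89% of all genes. In that comparison 13 of the 42 genes had an unadjusted p under 0.05, against 13.4% of all genes, 35 were below 0, against 47.4% of all genes, and the median log2 fold change was -0.31, against 0.01 for all genes tested. The number of genes called between 30 and 3 µg/kg was 18 without mouse 65. It was 0 without mouse 67 or any of the 3 µg/kg mice. The number called by the F test was 24 without mouse 65 and 11 without mouse 43. It was 5 or 6 without mouse 3, 9, 41, 44 or 58, 1 without mouse 68 and 0 without mouse 67.

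The 3 mice at 30 µg/kg did not respond alike. Relative to the vehicle mean, the median log2 ratio over the 21 mitosis genes was -0.22 in mouse 65, -1.15 in mouse 67 and -0.94 in mouse 68, and it ran from -0.23 to 0.28 in the vehicle mice. Mouse 65 therefore lay within the vehicle range, and mice 67 and 68 far below it. A mouse at 1 µg/kg, number 43, reached -0.96, while the other 1 µg/kg mice, 41 and 44, stood at -0.25 and -0.04. The same 3 mice were lowest over the 11 replication genes, with -0.91 in mouse 67, -0.68 in mouse 43 and -0.52 in mouse 68. Without mouse 65 the number of genes called at 30 µg/kg was 32, of which 29 fell. It was 4 without mouse 67, 9 without mouse 68, and 13, 23 and 5 without vehicle mice 2, 3 and 4. In a fit of only the 6 mice compared it was 0. The trend called 25 to 33 genes when any 1 of the 27 mice was left out, and 30 without mouse 43.

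**Figure D2:**
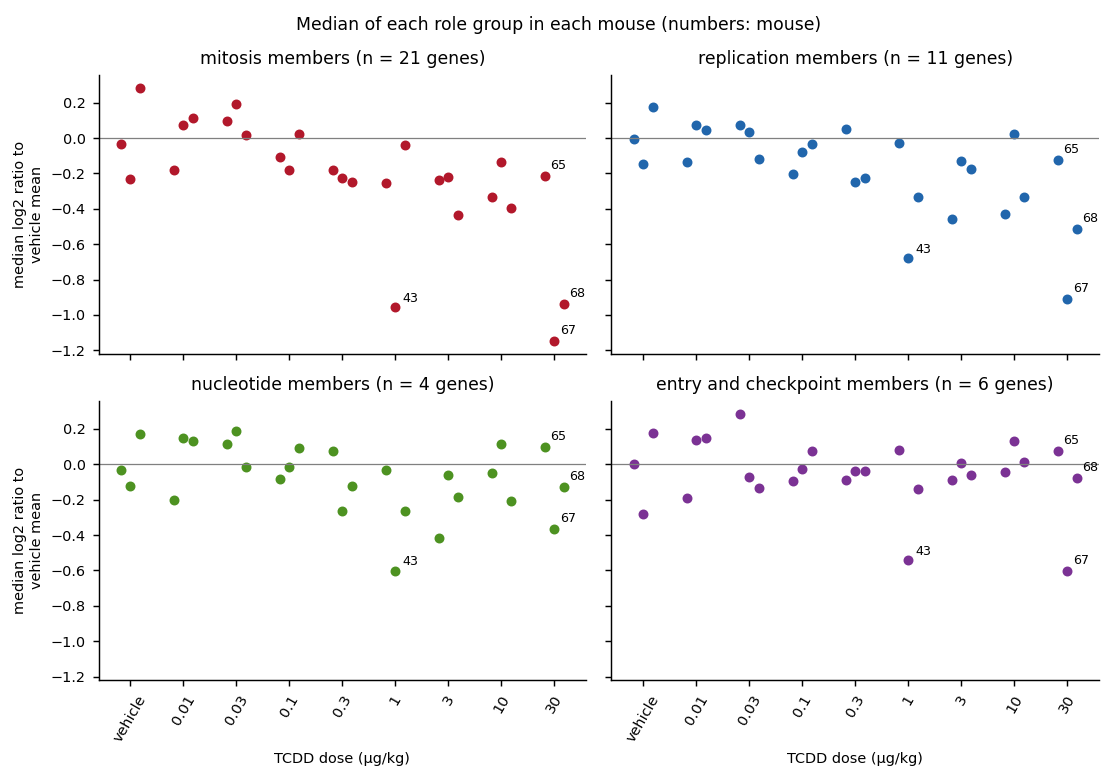
Median log2 ratio of each role group to the vehicle mean (vertical axis) in each of 27 mice by TCDD dose (horizontal axis), each point a mouse. Mice 67 and 68 at 30 µg/kg and mouse 43 at 1 µg/kg lie lowest among the mitosis genes, and mouse 65 at -0.22 lies within the vehicle range.

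Other gene lists differed between these mice as well. Mature enterocyte markers summed to 31440 to 33880 CPM in vehicle, to 24620 CPM in mouse 65, and to 62240 and 49840 CPM in mice 67 and 68, and were 37700 CPM in mouse 43. The 3 mice at 3 µg/kg were all above mouse 43 in these markers, at 38990 to 43790 CPM. Their medians over the mitosis genes were -0.44 to -0.22. Of 12 enterocyte markers 3 rose at 30 µg/kg, among them Sis, a brush border disaccharidase, and Slc5a1, the sodium-glucose transporter. Only 1, Fabp6, the ileal bile acid binding protein, fell. The trend called 5 of the 12 as rising and 1 as falling. Stem and transit-amplifying markers summed to 707 to 914 CPM in vehicle, 801 CPM in mouse 65, 464 CPM in mouse 67 and 550 CPM in mouse 68. Of those 13 markers, 5 fell and 0 rose at 30 µg/kg, and 10 were below 0. Among the 5 were Lgr5, the receptor that marks crypt base stem cells, from 14.3 ± 4.08 to 4.72 ± 2.24 CPM, and Axin2, a Wnt target, from 175 ± 2.87 to 94.8 ± 18.5 CPM. The trend called 5 of the 13 as falling and 1 as rising. Markers of T cells (0 of 13 called), stroma and muscle (0 of 11) and Paneth cells (0 of 10) gave no call at 30 µg/kg in edgeR. In the trend 3 T cell markers and 1 stroma and muscle marker fell. Of all genes tested 3.98% fell and 5.42% rose at 30 µg/kg, and 12.8% fell and 13.4% rose in the trend. Stroma and muscle markers summed to 104 to 280 CPM in vehicle, 428 CPM in mouse 65, 123 and 101 CPM in mice 67 and 68 and 70.3 CPM in mouse 43. T cell markers summed to 267 to 308 CPM in vehicle, 194 CPM in mouse 65, 314.3 and 303.2 CPM in mice 67 and 68 and 422 CPM in mouse 43. Mouse 65 was thus the highest of these in stroma and muscle markers and the lowest in T cell markers. Of the 10 Paneth markers 9 were below 0 at 30 µg/kg, with a median log2 fold change of -0.22. They summed to 1920 to 4649 CPM in vehicle, 3905 CPM in mouse 65, 2142 and 3136 CPM in mice 67 and 68 and 1873 CPM in mouse 43. Of 15 B cell and germinal centre markers, which could also bring dividing cells, 1 fell, and the list summed to 61.9 to 163 CPM in vehicle and 91.0 to 141 CPM at 30 µg/kg. Plasma cell markers fell for 4 of 7 genes, from 2208 to 2859 CPM summed in vehicle to 739 to 1344 CPM. The part of these shifts in the 42 genes was not tested.

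**Figure D3:**
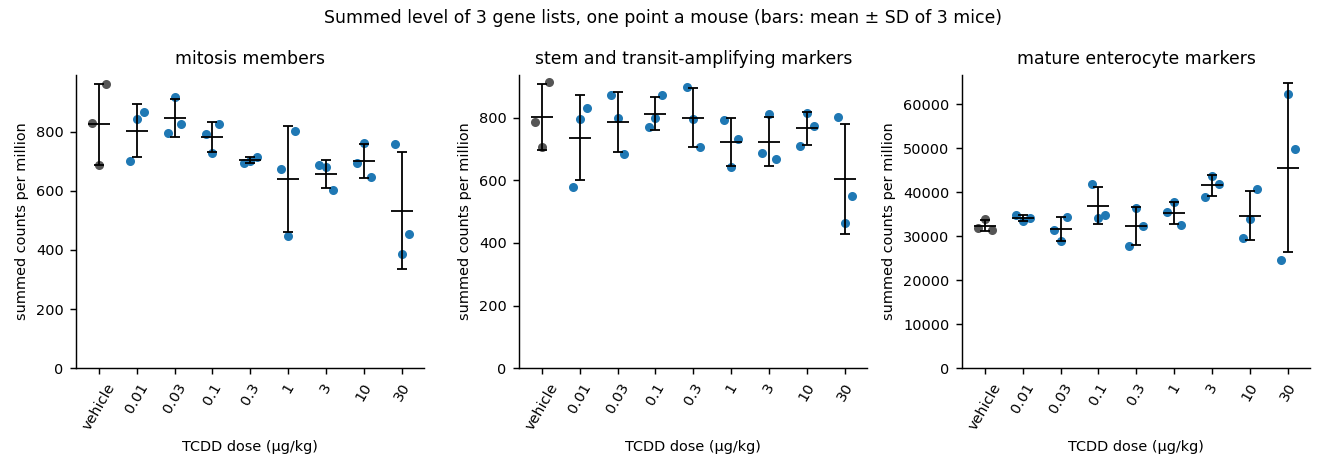
Summed CPM (vertical axes, from 0) of the mitosis genes, the stem and transit-amplifying markers and the mature enterocyte markers in each mouse by TCDD dose, with the mean ± SD of 3 mice. At 30 µg/kg mice 67 and 68 are low in the first and second panels and high in the last, at 62240 and 49840 CPM of enterocyte markers.

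Dose also ran together with library index use and with clock gene expression. The 16 library indexes appear once each in mice 2 to 41, which cover vehicle to 0.3 µg/kg and 1 mouse at 1 µg/kg, and 11 of them recur in mice 43 to 68. The labels do not say whether the mice of the first and second use were handled apart. Doses of 3 and 30 µg/kg both belong to the second use. With index use as a covariate 1 of the 42 genes was called at 30 µg/kg, Wee1, upward, and the median log2 fold change was -0.30 with 30 genes below 0. That fit takes its index term from 1 µg/kg, the only dose with mice of both uses. It sets mouse 41 against mice 43 and 44, so the low levels of mouse 43 enter it. Within the 16 mice of the first use the trend called 0 genes in edgeR and within the 11 of the second use 1, upward. The median slopes there were -0.04 and -0.06 log2 units per dose step, against -0.07 over all mice. Of 17 circadian clock genes, 10 rose and 4 fell at 30 µg/kg, and a score over them ran from -1.30 to -1.05 in vehicle and from 1.11 to 1.51 at 30 µg/kg. With that score as a covariate 0 of the 42 genes were called at 30 µg/kg or in the trend in edgeR, with a median log2 fold change at 30 µg/kg of -0.54. Index use, clock score and dose therefore cannot be told apart by these fits.

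Mitosis genes gave most of the calls: 15 of 21 fell at 30 µg/kg, 0 rose, all 21 were below 0 and the median log2 fold change was -0.71. Ccnb1, the cyclin that activates Cdk1 at mitotic entry, stood at 10.8, 10.9 and 15.5 CPM in the vehicle mice and at 8.74, 3.33 and 5.54 CPM in mice 65, 67 and 68. The groups did not overlap, although mouse 65 came close to the lower vehicle mice, and the log2 fold change was -1.07 ± 0.26 (SE, edgeR adjusted p = 0.00641). The related cyclin Ccnb2 stood at 18.9, 17.1 and 25.1 CPM in vehicle and 16.2, 6.42 and 7.25 CPM at 30 µg/kg, again without overlap, and the log2 fold change was -1.03 ± 0.24 (adjusted p = 0.0048). Ccna2, the cyclin of S phase and G2, stood at 51.7, 38.5 and 66.0 CPM in vehicle and 37.7, 18.0 and 25.5 CPM at 30 µg/kg. Here mouse 65 lay just below the lowest vehicle mouse, and the log2 fold change was -0.94 ± 0.23 (adjusted p = 0.00641). Cdk1, the kinase of all these cyclins, stood at 13.8, 12.2 and 19.1 CPM in vehicle and 12.7, 5.96 and 7.25 CPM at 30 µg/kg. Mouse 65 overlapped vehicle, and the log2 fold change was -0.80 ± 0.24 (adjusted p = 0.0239). The mean of Ccnb1 ran from 8.72 to 13.5 CPM across the 7 lower doses and that of Cdk1 from 10.4 to 16.4 CPM.

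**Figure D4:**
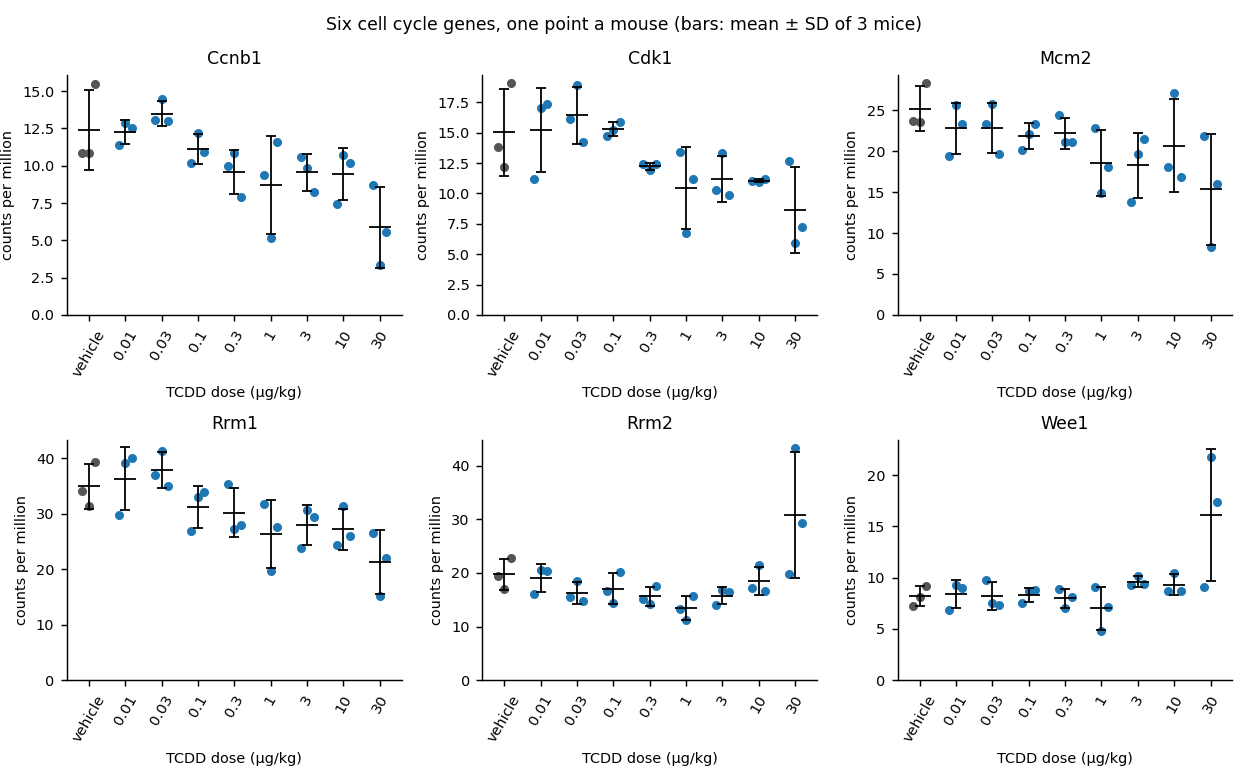
CPM (vertical axes, from 0) of Ccnb1, Cdk1, Mcm2, Rrm1, Rrm2 and Wee1 in each mouse by TCDD dose, with the mean ± SD of 3 mice. Rrm2 and Wee1 are high in mice 67 and 68 alone, up to 43.2 and 21.8 CPM, where the other 4 genes are low.

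Kinases of the spindle and their partners fell as well. Aurka, which matures centrosomes, stood at 12.4, 10.9 and 17.0 CPM in vehicle and 9.17, 3.87 and 6.35 CPM at 30 µg/kg. All 3 treated mice lay below vehicle, with a log2 fold change of -1.05 ± 0.25 (edgeR adjusted p = 0.00546). Tpx2, which binds and activates Aurora A, stood at 21.8, 21.4 and 29.6 CPM in vehicle and 19.3, 10.3 and 12.5 CPM at 30 µg/kg, also without overlap, and fell by 0.79 on the log2 scale (SE 0.21, adjusted p = 0.0114). Aurkb, the kinase of the chromosomal passenger complex, stood at 14.4, 11.2 and 13.6 CPM in vehicle and 10.5, 7.04 and 7.82 CPM at 30 µg/kg. These groups did not overlap either, at -0.63 ± 0.20 (adjusted p = 0.0333). Plk1, a kinase of mitotic entry and spindle assembly, stood at 19.5, 14.9 and 23.8 CPM in vehicle and at 17.5, 7.89 and 7.82 CPM at 30 µg/kg. Mouse 65 lay between the vehicle mice, and the change was -0.80 ± 0.26 (adjusted p = 0.0369).

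Motor proteins and spindle checkpoint genes followed, with mouse 65 the highest of the 3 treated mice for each. Kif11, the kinesin that separates spindle poles, stood at 38.9, 29.9 and 46.6 CPM in vehicle and 28.9, 17.0 and 16.1 CPM at 30 µg/kg, with a change of -0.89 ± 0.20 (edgeR adjusted p = 0.0038). Kif20a, a kinesin of the central spindle, stood at 15.4, 14.9 and 19.7 CPM and at 12.5, 6.57 and 10.8 CPM, with a change of -0.74 ± 0.23 (adjusted p = 0.0251). Neither overlapped vehicle, but 29.3% of the exon length of Kif20a lies under exons of Cdc23 on the opposite strand, and whether the counting used strand is not stated. Single genes on the opposite strand also cover 12.5% of the exon length of Ccna2, 17.4% of Ccne2, 11.2% of E2f8 and at most 7.25% of the other genes of the set except Gins2. Bub1, a checkpoint kinase at the kinetochore, stood at 10.1, 9.83 and 11.6 CPM in vehicle and 9.10, 4.33 and 5.78 CPM at 30 µg/kg, with a change of -0.71 ± 0.21 (adjusted p = 0.0232). Bub1b, its relative in the checkpoint complex, stood at 27.4, 24.9 and 32.4 CPM and at 23.9, 12.7 and 16.1 CPM, with a change of -0.68 ± 0.18 (adjusted p = 0.00911). Both were below vehicle in all 3 treated mice. Ttk, the kinase that starts checkpoint signalling, stood at 8.66, 6.24 and 8.10 CPM in vehicle and 6.45, 4.02 and 2.93 CPM at 30 µg/kg, with a change of -0.77 ± 0.25 (adjusted p = 0.0332). Cdc20, the target of that checkpoint, stood at 22.1, 23.2 and 30.4 CPM and at 23.3, 11.9 and 12.5 CPM, with a change of -0.66 ± 0.23 (adjusted p = 0.0445). Mouse 65 overlapped vehicle for both. Top2a stood at 144, 119 and 177 CPM in vehicle and 134, 61.6 and 85.2 CPM at 30 µg/kg, overlapping through mouse 65, with a change of -0.65 ± 0.20 (adjusted p = 0.0289).

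The calls of these 15 mitosis genes rested on few mice. Ccnb2, Aurka and Kif11 were called whichever of the 6 mice was left out. Ccnb1, Ccna2, Bub1b and Kif20a lost the call without mouse 4, the vehicle mouse with the highest levels, and without mouse 67. Cdk1, Bub1 and Tpx2 lost it without mouse 4, 67 or 68, and Top2a, Plk1, Ttk and Aurkb without mouse 2 as well. Cdc20 kept it only without mouse 65. In the trend all 15 fell, from -0.06 log2 units per dose step for Aurkb (adjusted p = 0.0232) to -0.11 for Ccnb1 (adjusted p = 0.00116, edgeR).

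The remaining 6 mitosis genes did not pass at 30 µg/kg, and 4 of them fell in the trend. Mki67 stood at 249, 191 and 254 CPM in vehicle and 234, 116 and 128 CPM at 30 µg/kg, with a change of -0.54 ± 0.21 (edgeR adjusted p = 0.0718) and a trend of -0.06 log2 units per dose step (adjusted p = 0.0106). Cenpe, a kinetochore kinesin, stood at 39.5, 30.2 and 44.0 CPM and at 35.6, 20.2 and 18.7 CPM (trend adjusted p = 0.0165). For both, mouse 65 lay among the vehicle mice and the others below. Nusap1, which bundles spindle microtubules, stood at 16.8, 16.4 and 27.3 CPM and at 19.2, 10.4 and 12.3 CPM (trend adjusted p = 0.0253). Birc5, or survivin, stood at 19.6, 15.6 and 19.9 CPM and at 16.9, 11.8 and 14.7 CPM (trend adjusted p = 0.0124). Cenpf, a kinetochore protein, and Kif23, a kinesin of cytokinesis, passed neither test, and their log2 fold changes at 30 µg/kg were -0.39 (95% interval -0.82 to 0.03) and -0.19 (-0.46 to 0.08).

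Promoters are printed for 6 genes drawn from the cyclins and kinases of mitosis, the replicative helicase and ribonucleotide reductase, all called at 30 µg/kg. They are RefSeq sequences of GRCm38.p6, from 250 bases before to 50 bases after the gene start, read along the gene's strand. Ccnb1 is at chr13:100786437-100786736 (minus strand), Cdk1 at chr10:69352863-69353162 (minus), Aurka at chr2:172370521-172370820 (minus), Mcm2 at chr6:88898731-88899030 (minus), Rrm1 at chr7:102441445-102441744 (plus) and Rrm2 at chr12:24708004-24708303 (plus). Capitals mark, on either strand, the cell cycle homology region core TTTGAA, the CCAAT box, the DRE core GCGTG and E2F-like cores. The last were TTCCCGC, its variant with a changed middle, TTGGCGC, and a further variant written TTCGCGC.
Ccnb1: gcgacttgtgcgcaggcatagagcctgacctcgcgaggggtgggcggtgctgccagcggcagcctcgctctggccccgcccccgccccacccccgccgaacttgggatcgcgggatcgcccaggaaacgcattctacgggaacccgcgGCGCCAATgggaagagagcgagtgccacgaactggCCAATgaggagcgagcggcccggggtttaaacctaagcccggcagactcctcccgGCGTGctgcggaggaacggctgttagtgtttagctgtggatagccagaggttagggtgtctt
Cdk1: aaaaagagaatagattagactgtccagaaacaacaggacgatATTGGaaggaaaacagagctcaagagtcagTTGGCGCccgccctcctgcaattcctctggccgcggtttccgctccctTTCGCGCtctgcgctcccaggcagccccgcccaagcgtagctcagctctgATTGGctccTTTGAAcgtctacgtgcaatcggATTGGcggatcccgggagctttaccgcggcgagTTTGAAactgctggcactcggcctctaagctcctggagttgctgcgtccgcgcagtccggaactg
Aurka: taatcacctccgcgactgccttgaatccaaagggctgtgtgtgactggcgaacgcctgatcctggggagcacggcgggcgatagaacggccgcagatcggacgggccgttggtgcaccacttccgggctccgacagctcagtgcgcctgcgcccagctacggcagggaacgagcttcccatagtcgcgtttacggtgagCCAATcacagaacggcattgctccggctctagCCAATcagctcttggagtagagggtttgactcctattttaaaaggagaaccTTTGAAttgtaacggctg
Mcm2: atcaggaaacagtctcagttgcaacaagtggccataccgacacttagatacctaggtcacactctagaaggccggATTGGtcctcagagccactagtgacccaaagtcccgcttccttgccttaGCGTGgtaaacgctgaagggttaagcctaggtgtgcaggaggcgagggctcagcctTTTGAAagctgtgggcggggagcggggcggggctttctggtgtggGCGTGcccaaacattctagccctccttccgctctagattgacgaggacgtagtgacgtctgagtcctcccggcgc
Rrm1: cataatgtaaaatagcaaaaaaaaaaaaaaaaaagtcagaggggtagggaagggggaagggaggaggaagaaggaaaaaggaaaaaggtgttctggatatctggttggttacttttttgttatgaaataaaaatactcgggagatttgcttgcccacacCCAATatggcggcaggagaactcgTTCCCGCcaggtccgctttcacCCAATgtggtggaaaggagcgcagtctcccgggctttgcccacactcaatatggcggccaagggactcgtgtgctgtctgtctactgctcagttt
Rrm2: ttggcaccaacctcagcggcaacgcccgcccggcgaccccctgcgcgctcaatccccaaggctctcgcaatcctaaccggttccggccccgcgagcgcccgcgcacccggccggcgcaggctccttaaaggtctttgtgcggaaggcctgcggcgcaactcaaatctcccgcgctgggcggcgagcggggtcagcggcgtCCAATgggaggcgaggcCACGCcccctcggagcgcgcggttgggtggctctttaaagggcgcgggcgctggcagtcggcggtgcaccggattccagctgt
In Ccnb1 an E2F-like core overlaps the first CCAAT box by 4 bases.

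Of the 42 genes, 33 had an entry in the promoter table, with 35 promoters in all because Mcm7 and Uhrf1 have a second one. TTTGAA was found in 12 of 17 promoters of mitosis genes (70.6%), 1 of 9 of replication genes (11.1%), 0 of 4 of nucleotide genes and 17.9% of all 32851 promoters of the table. CCAAT was found in 88.2% of mitosis, 77.8% of replication and 37.4% of all promoters. The E2F-like cores were found in 3 of 17 mitosis promoters (17.6%), 7 of 9 replication promoters (77.8%) and 8.07% of all promoters. GCGTG was found in 11 of 17 mitosis promoters (64.7%), 4 of 9 replication promoters (44.4%) and 32.4% of all promoters. It was also in 1 of 4 nucleotide promoters (25%) and 4 of 5 entry and checkpoint promoters (80%). The printed Ccnb1 and Mcm2 promoters differ from most of their groups: Ccnb1 lacks TTTGAA, and Mcm2 is the 1 replication promoter that holds it and lacks the E2F-like cores. These are matches of letters in a window of 300 bases and not measured binding. The promoters of the table were not matched to those of the set for base composition, so the shares cannot show enrichment beyond it.

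Of the 11 replication genes 3 fell at 30 µg/kg, 0 rose, all 11 were below 0 and the median log2 fold change was -0.54. Pcna, the sliding clamp of the polymerases, stood at 19.8, 19.4 and 24.0 CPM in vehicle and at 15.6, 12.6 and 12.2 CPM in mice 65, 67 and 68. All 3 treated mice, mouse 65 included, lay below vehicle, and the log2 fold change was -0.64 ± 0.13 (SE), with the smallest adjusted p of the 42 genes (edgeR, 0.0019). Without vehicle mouse 4 it was -0.54 and without mouse 68 it was -0.58, past the adjusted p but under the fold minimum.

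The Mcm2 to Mcm7 subunits form the ring helicase that opens DNA at origins. Mcm2 stood at 23.6, 23.6 and 28.4 CPM in vehicle and 21.9, 8.28 and 16.0 CPM at 30 µg/kg, with a change of -0.71 ± 0.24 (edgeR adjusted p = 0.0402). Mcm5 stood at 27.0, 25.8 and 30.0 CPM and at 23.9, 9.98 and 19.2 CPM, with a change of -0.64 ± 0.21 (adjusted p = 0.0392). For both, the treated mice lay below every vehicle mouse, with mouse 67 lowest. The Mcm2 call was lost when mouse 2, 3, 4, 67 or 68 was left out and the Mcm5 call when mouse 2, 4, 67 or 68 was. Mcm3 stood at 21.6, 19.1 and 22.1 CPM and at 20.6, 9.59 and 12.8 CPM, and passed the adjusted p (0.0492) but not the fold minimum. Mcm4 stood at 27.5, 21.9 and 30.0 CPM and at 24.1, 11.7 and 17.5 CPM (adjusted p = 0.061), overlapping vehicle through mouse 65. Mcm7 stood at 27.8, 28.1 and 33.2 CPM and at 27.1, 15.7 and 20.9 CPM (adjusted p = 0.0724). Mcm6 stood at 43.7, 36.7 and 47.0 CPM and at 39.6, 29.0 and 36.5 CPM (adjusted p = 0.288), the smallest change of the 6 subunits, at -0.28 ± 0.17. In the trend all 6 subunits fell, with adjusted p from 0.00378 for Mcm3 to 0.0456 for Mcm6.

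The GINS genes of the set and the loading factors of the helicase, Cdc6 and Cdt1, were not called at 30 µg/kg. Gins1, a subunit of the GINS complex that completes the active helicase, stood at 2.18, 1.39 and 2.42 CPM in vehicle and 1.43, 0.928 and 1.06 CPM at 30 µg/kg, overlapping through mouse 65. Its log2 fold change of -0.80 ± 0.30 missed the threshold (edgeR adjusted p = 0.0646), and it fell in the trend (adjusted p = 0.00612). For Gins2 the change was -0.35 (95% interval -0.84 to 0.15), with 67.3% of its exon length under exons of Gse1 on the opposite strand. Cdc6 and Cdt1, which load the helicase in G1, gave -0.14 (-0.61 to 0.34) and -0.16 (-0.48 to 0.17).

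Nucleotide genes parted. Ribonucleotide reductase makes deoxynucleotides from a large subunit, Rrm1, and a small one, Rrm2, whose transcript is made in S phase. Rrm1 stood at 34.1, 31.3 and 39.3 CPM in vehicle and at 26.6, 15.2 and 22.1 CPM in mice 65, 67 and 68. All 3 treated mice lay below vehicle, and the log2 fold change was -0.71 ± 0.18 (SE, edgeR adjusted p = 0.0089). Rrm2 stood at 19.4, 17.0 and 22.8 CPM in vehicle and at 19.8, 43.2 and 29.3 CPM at 30 µg/kg. Mouse 65 lay among the vehicle mice and mice 67 and 68 above them, and the log2 fold change was 0.64 ± 0.20 (adjusted p = 0.0276). The Rrm1 call was lost without mouse 4 or mouse 67.

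Within a mouse the ratio of Rrm2 to Rrm1 CPM was 0.543 to 0.581 in vehicle. It was 0.643 to 0.710 at 10 µg/kg, and 0.747, 2.84 and 1.33 in mice 65, 67 and 68. The 6 mice of the 2 highest doses were thus above every vehicle mouse in this ratio, while ratios at 0.1 and 0.3 µg/kg reached 0.619 and 0.628. Rrm2 itself was lower at intermediate doses, with mean levels of 13.4 to 19.1 CPM across the 7 lower doses, all under the vehicle mean of 19.7 ± 2.93 CPM. The Rrm2 call against vehicle was lost when mouse 2, 3, 67 or 68 was left out, with a log2 fold change of 0.31 without mouse 67. Tyms, which makes thymidylate, and Tk1, which salvages thymidine, gave log2 fold changes of -0.10 (95% interval -0.41 to 0.20) and 0.02 (-0.39 to 0.42), and neither was called in any comparison.

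Of the 6 entry and checkpoint genes only Wee1 was called at 30 µg/kg. It stood at 7.25, 8.14 and 9.21 CPM in vehicle and at 9.10, 21.8 and 17.4 CPM in mice 65, 67 and 68. Mouse 65 was within the vehicle range and the other mice above it, and the log2 fold change was 0.97 ± 0.23 (SE, edgeR adjusted p = 0.00512). Across the 7 lower doses the mean was 7.02 to 9.62 CPM. The ratio of Wee1 to Cdk1 CPM, inhibitor to target, was 0.482 to 0.669 in vehicle, 0.590 to 0.713 at 0.3 µg/kg, 0.639 to 0.716 at 1 µg/kg, 0.764 to 0.948 at 3 µg/kg, 0.779 to 0.958 at 10 µg/kg, and 0.718, 3.66 and 2.40 in mice 65, 67 and 68. Mice above the vehicle range were found from 0.3 µg/kg on, 1 of 3 there and 2 of 3 at 1 µg/kg, and mouse 65 lay close to them. Wee1 was called up and Cdk1 down at 30 µg/kg in the same data, so the ratios there are not separate evidence. Other pairs of genes were not tested. The Wee1 call was lost without mouse 67 (0.69, adjusted p = 0.0675) and kept when any other of the 6 mice was left out. Mouse 43, low for mitosis genes like mice 67 and 68, had Wee1 at 4.84 CPM and Rrm2 at 11.2 CPM, the reverse of those mice.

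The other 5 genes of this group were not called. E2f8, a repressor of E2F targets, gave -0.47 (95% interval -0.95 to 0.01), E2f1, the activator, -0.33 (-0.69 to 0.02), and Uhrf1, which recruits maintenance methylation to replicating DNA, -0.34 (-0.79 to 0.11). The E-type cyclins of S phase entry gave 0.07 for Ccne1 (-0.49 to 0.63) and 0.44 for Ccne2 (-0.03 to 0.91).

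**Figure D5:**
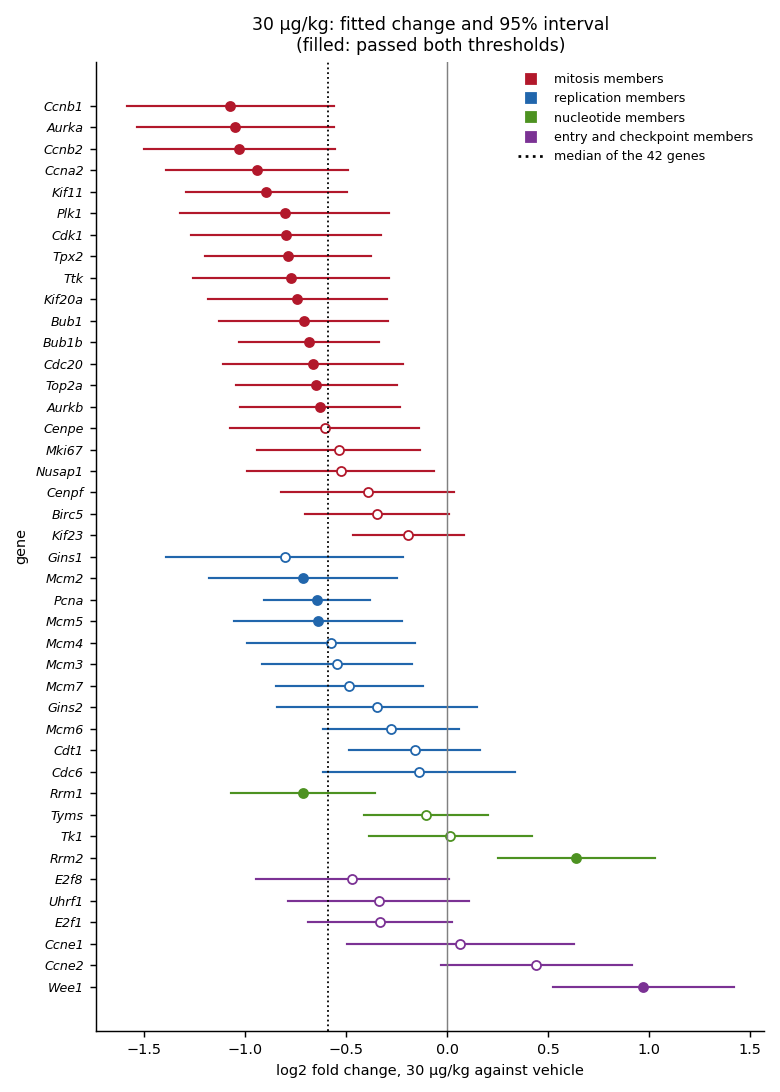
Fitted log2 fold change at 30 µg/kg against vehicle (horizontal axis) with its 95% interval for each of the 42 genes, grouped by role, filled where both thresholds were passed. The lowest values are those of mitosis genes, down to -1.07, and the dotted line is the median of -0.59. Rrm2 and Wee1 are the filled genes above 0, and Ccne2, Ccne1 and Tk1 also lie above 0.

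In single mice, the groups at 30 µg/kg lay apart from vehicle for 15 of the 42 genes, all below, against 13.3% of all genes tested. At 10 µg/kg 6 genes lay wholly below, against 11.8%, and at 3 µg/kg 14 did, against 12.1%. The 15 genes at 30 µg/kg had an exact two-sided permutation p of 0.1, the smallest that 3 mice against 3 allow, and Rrm2 and Wee1 had 0.2.

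Genes of the same pathways outside the set were counted in the same fit, in which 3.98% of all genes tested fell and 5.42% rose at 30 µg/kg. Of 54 other mitosis genes 17 fell and 0 rose at 30 µg/kg, with 52 below 0 and a median log2 fold change of -0.52. They included Nek2, a centrosome kinase (-0.98, edgeR adjusted p = 0.000729), Cenpa, the centromeric histone (-0.81, adjusted p = 0.00109), and Cks1b, a Cdk-binding protein (-1.25, adjusted p = 0.0038). Of 50 other replication and S phase genes 5 fell and 0 rose, with a median of -0.32. Among them were Fen1, the flap nuclease of lagging strands (-0.79, adjusted p = 0.00263), and Gmnn, the inhibitor of Cdt1 (-0.59, adjusted p = 0.027).

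Among 28 regulators of cell cycle entry 3 fell and 1 rose. E2f2, an activator E2F, fell from 50.4 ± 6.11 to 17.6 ± 5.31 CPM (log2 -1.52, edgeR adjusted p = 7.47e-06). Ccnd1, the D-type cyclin that answers growth signals, fell from 171 ± 24.0 to 75.6 ± 43.0 CPM (-1.17, adjusted p = 0.00225). E2f6, a repressor, fell (-0.82, adjusted p = 0.00469), and Rb1, the retinoblastoma protein that restrains E2F, rose from 118 ± 4.47 to 182 ± 35.9 CPM (0.61, adjusted p = 0.000531). Of 25 tested Cdk inhibitors and p53 targets, Plk2 and Sesn1 rose and Aen fell at 30 µg/kg, and 8 rose and 3 fell in the trend, where 13.4% of all genes rose and 12.8% fell. Cdkn1a, the p21 inhibitor, chosen after its values were seen, rose in the trend, at 250 ± 20.7 CPM in vehicle and 341 ± 92.8 CPM at 30 µg/kg (trend adjusted p = 0.0012). Of 22 DNA damage checkpoint and repair genes 1, Bard1, fell at 30 µg/kg. Yet 21 of the 22 were below 0 there, against 48.2% of all genes, with a median log2 fold change of -0.30. The trend called 5 of the 22 as falling and 0 as rising. The counts of Cdk inhibitors and p53 targets and of repair genes called at 30 µg/kg were near the shares over all genes.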

How the data were processed

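RNA-Seq counts of 27 ileal scrapings were analysed. Per the labels, the authors trimmed reads with Trimmomatic 0.33, checked them with FastQC 0.11.3, aligned them to GRCm38 with Bowtie2 and TopHat2 2.1.0, and counted reads per Ensembl gene with HTSeq 0.6.1 after SAMtools 1.2.0. The counting options and strand setting are not given in the sources used here. The deposited values are raw counts per gene, and reads on no feature were left out with the other summary lines. They were 44.48 to 49.52% of the reads on genes, on no feature or ambiguous, a total without non-unique alignments. Depth was 12260382 to 17135426 counts on genes, and within groups 27 pairs of mice were compared and 0 were identical (chi-square per degree of freedom 6.99 to 74.26).

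The counts were fitted with edgeR 4.0.16 (R 4.3.3) by quasi-likelihood over all 27 mice in 9 groups, with TMM normalization and filterByExpr (minimum count 10, minimum total 15), which left 16741 genes and all 42 of the set. Benjamini-Hochberg adjustment was over all genes tested. CPM are scaled by TMM, RPKM use the exon length of GENCODE vM21, and fold changes are fitted values. The 42 genes and the 14 lists of other genes were chosen with earlier results of these data known, so none is independent evidence. Genes were named by a rule: per-mouse values for each of the 42 called at any dose or in the trend, and from other lists at most 5 called at 30 µg/kg. Myh11, Anpep and Vil1 are named as defining markers and Cdkn1a was chosen after its values were seen. The study's own posterior probability criterion could not be recomputed, and the adjusted p took its place. The listed symbols Sgol1, Sgol2a and Si matched no gene.

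Counts were simulated for 30 µg/kg against vehicle over 16741 genes. The fit recovered 3 of 50 genes changed 1.5-fold, 26 of 50 changed 2-fold, 24 of 50 changed 0.5-fold and 50 of 50 changed 4-fold. It made 6 false calls among 16541. In the measured counts, chi-square per degree of freedom was 6.99 to 16.15 between pairs of vehicle mice. At 30 µg/kg it was 18.83 between mice 67 and 68, and 74.26 and 45.51 between mouse 65 and mice 67 and 68. Whether these recovery and false call rates hold at that spread was not tested. Where nothing ties mice to cages, p-values measure the spread between these mice only. Alternatives were upper-quartile or library size scaling, other filters, DESeq2 1.42.0, index use or a clock score (first principal component of 17 clock genes) as a covariate, fits of subsets and leaving out each mouse. Figures were drawn with matplotlib 3.10.9.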

Additional observations from a re-analysis of the deposited data

How the results depend on the processing

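No paired analysis was possible because the labels give mice no replicate numbers shared between groups. At 30 µg/kg the count of 21 called genes was 20 to 23 with upper-quartile or library size scaling, either other filter and DESeq2. It was 1 with index use as a covariate, 0 with the clock score as a covariate, 0 in a fit of only the 6 mice compared, and 4 to 32 when 1 mouse was left out. The trend count of 29 was 28 to 32 under the other scalings, no filter and DESeq2, 25 to 33 when 1 mouse was left out, 0 with either covariate, 0 within the first index use and 1 within the second. The F test count of 3 was 1 with library size scaling, 14 with no filter, 15 with DESeq2, 0 with either covariate and 0 to 24 when 1 mouse was left out. The count of 1 between 30 and 3 µg/kg was 2 with no filter or DESeq2 and 0 to 18 when 1 mouse was left out. At every lower dose the count was 0 under each alternative run.

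Among log2 fold changes at 30 µg/kg that changed sign, none belonged to a gene called at that dose. With index use as a covariate they were 0.15 for Birc5, 0.23 for Mcm6, 0.53 for Cdc6, 0.59 for Cdt1, 0.18 for Tyms, 0.043 for E2f8 and 0.067 for Uhrf1. With the clock score they were 0.058 for Kif23, 0.14 for Cdc6, 0.14 for Gins2, 0.12 for Tyms, -0.62 for Tk1 and -0.23 for Ccne2. With library size scaling Tk1 was -0.10 and Ccne1 -0.046, and with no filter Tk1 was -0.016. With 1 mouse left out Tyms ran from -0.30 to 0.068, Tk1 from -0.25 to 0.12 and Ccne1 from -0.23 to 0.40. The fit with index use takes its index term from the 1 µg/kg mice 41, 43 and 44 alone. The cause of the changes of sign was not tested.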
